A study of Mus musculus with 56 samples.

Results

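Acute phase proteins are plasma proteins whose hepatic output changes with inflammation. The set described here holds 10 of them, namely Saa1, Saa2, Saa3, Saa4, Lcn2, Orm1, Orm2, Hp, Apcs and Serpina3n, taken by symbol from the 21935 genes of the liver count matrix. All 10 had 1 row each and passed the filter on low counts (5 or more reads in 3 or more mice), which 14105 genes passed. Livers of 56 male C57BL/6J mice were sequenced, 8 in each of 7 groups. The mice arrived at 5 to 6 weeks of age and were fed chow or the AMLN diet, a high-fat diet rich in fructose and cholesterol, for 36 weeks before dosing. Every mouse had a liver biopsy and 3 weeks of recovery, and was then dosed once daily under the skin for 8 weeks. DIO-MASH denotes the diet-induced obese mice with metabolic dysfunction-associated steatohepatitis, which were kept in the study on the basis of that biopsy, so they are a selected share of the animals on the diet. Chow vehicle and DIO-MASH vehicle mice received vehicle. The other 5 groups were DIO-MASH mice given the long-acting FGF21 analogue zalfermin at 0.05 mg/kg (low dose) or 0.2 mg/kg (high dose), the GLP-1 receptor agonist semaglutide at 3 µg/kg (low dose) or 120 µg/kg (high dose), or both drugs together. The study's methods give the combination as the 0.05 mg/kg and 3 µg/kg doses, whereas the series description speaks of the high doses; the methods were followed here.

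In inflammation, macrophage-derived interleukin-6 acts through STAT3 in hepatocytes, while interleukin-1 and TNF act through NF-kB, and C/EBP factors cooperate with both, so that acute phase genes are transcribed more. Saa1 and Saa2 encode the inducible serum amyloid A proteins carried on high-density lipoprotein, Saa3 a form also made outside the liver by macrophages and adipocytes, and Saa4 a constitutive form. Lcn2 binds bacterial siderophores, Orm1 and Orm2 are the alpha-1-acid glycoproteins, Hp is haptoglobin, which captures free haemoglobin, Apcs is serum amyloid P component, a pentraxin and a major acute phase reactant of the mouse, and Serpina3n is a serine protease inhibitor.

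The total count per mouse ran from 5228187 to 20885786 with a median of 12206788. Values are CPM, which scale each count to a common library size after TMM, a correction for composition. In 3 mice, 5 or more of the 10 members lay over 2 times above the median of their own group, and these mice, picked on the members' own values, stand apart from the rest. They are chow vehicle mouse 2 and combination mouse 6, with all 10 members over it, and chow vehicle mouse 7, with 6. The members summed to 52370 CPM in chow mouse 2, or 5.24% of the scaled library, against a chow median of 0.492%. They made up 2.11% in chow mouse 7, and 2.37% in combination mouse 6 against a combination median of 0.724%. The edgeR differences below that involve chow or combination mice are given with all mice and without these 3, and the second set is a description, since the choice used the values described. Of all 14105 genes, 4.74% lay over 2 times above the group median in chow mouse 2, 1.97% in chow mouse 7 and 2.25% in combination mouse 6.

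**Figure D1:**
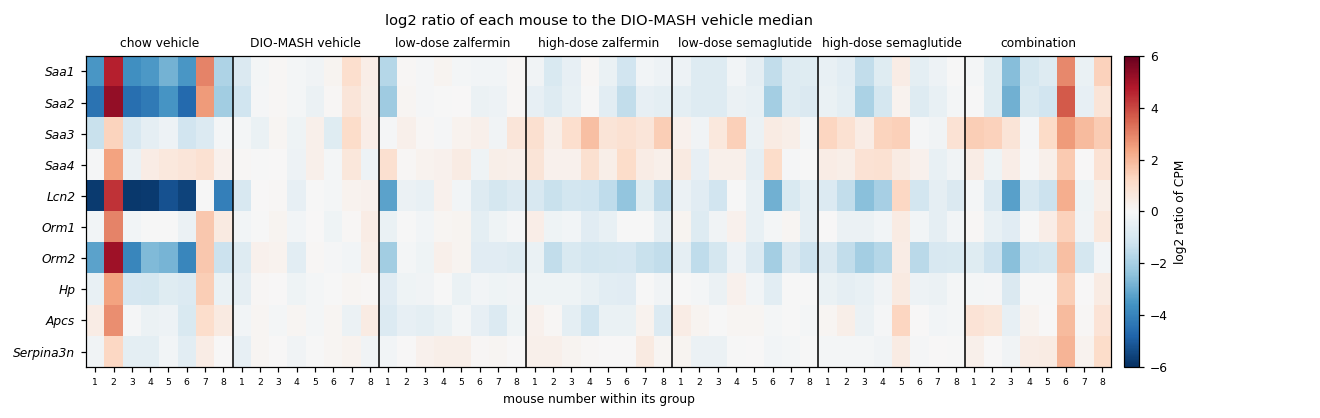
Level of each of the 10 acute phase genes (rows) in each of the 56 mice (columns, by group), as the log2 ratio of the mouse's CPM to the median of the DIO-MASH vehicle group. Chow mice 2 and 7 and combination mouse 6 are high in most rows, while the remaining chow mice are low in the rows of Saa1, Saa2, Lcn2 and Orm2.

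In the DIO-MASH vehicle livers the members spanned a wide range of abundance. Divided by the length of the principal annotated transcript, the median level was 4117 CPM per kilobase for Hp, 681.7 for Orm1, 336 for Saa1, 238.2 for Serpina3n, 236.1 for Saa2, 168.1 for Lcn2, 84.6 for Apcs, 76.7 for Orm2, 55 for Saa4 and 13.6 for Saa3. The lowest Hp mouse (2875 CPM per kilobase) was above the highest Orm1 mouse (920.3), and the highest Saa3 mouse (29.1) was below the lowest Saa4 mouse (44.1). Between these ends the neighbours in the order overlapped across mice, for example Saa1 (185.4 to 681.3) with Orm1 (565 to 920.3) and Apcs (66.6 to 118.3) with Orm2 (45.6 to 98.6). Hp was therefore the most abundant member per length and Saa3 the least in each of the 8 vehicle mice.

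The 4 Saa genes lie within 42316 bases of chromosome 7 (GRCm38, GENCODE M21), with Saa3 at chr7:46711998-46715700, Saa4 at chr7:46727998-46732603 and Saa1 at chr7:46740497-46742980 on the minus strand and Saa2 at chr7:46751790-46754313 on the plus strand. Orm1 (chr4:63344560-63348163) and Orm2 (chr4:63362449-63365878) lie 14285 bases apart on the plus strand of chromosome 4. The other members stand alone, with Lcn2 at chr2:32384633-32388252 (minus strand), Hp at chr8:109575128-109579172 (minus strand), Apcs at chr1:172893961-172895041 (minus strand) and Serpina3n at chr12:104406729-104414329 (plus strand). Of all 75-base windows of the annotated transcripts, 18.5% of those of Saa1 also occur in Saa2, and 13.8% of those of Orm1 also occur in Orm2. How reads of such windows were assigned is not given in the sources used here, so the split between Saa1 and Saa2 and between Orm1 and Orm2 is uncertain.

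RefSeq promoter sequences (GRCm38.p6) were at hand for 8 of the 10 members. The 250 bases before the start are shown for Saa1, Saa2 and Saa3, which share a cluster but moved apart between groups, and for Orm2, which moved with Saa1 and Saa2 from another chromosome. Capitals mark matches to TTNNGCAA, the core bound by C/EBP factors, searched on both strands and printed as its reverse complement where it lies on the opposite strand, and in Orm2 also the TATA box TATAAA.
Saa1 promoter (chr7:46742981-46743230, minus strand): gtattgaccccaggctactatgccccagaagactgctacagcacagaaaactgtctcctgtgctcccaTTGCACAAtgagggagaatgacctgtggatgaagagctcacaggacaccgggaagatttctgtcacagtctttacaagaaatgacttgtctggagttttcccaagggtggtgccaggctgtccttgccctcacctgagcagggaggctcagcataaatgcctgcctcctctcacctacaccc
Saa2 promoter (chr7:46751583-46751832, plus strand): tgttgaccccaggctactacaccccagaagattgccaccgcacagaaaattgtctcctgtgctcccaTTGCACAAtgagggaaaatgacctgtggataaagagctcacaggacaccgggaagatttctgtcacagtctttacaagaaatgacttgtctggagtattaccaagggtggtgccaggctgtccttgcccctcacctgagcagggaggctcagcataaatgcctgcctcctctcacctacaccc
Saa3 promoter (chr7:46715677-46715926, minus strand): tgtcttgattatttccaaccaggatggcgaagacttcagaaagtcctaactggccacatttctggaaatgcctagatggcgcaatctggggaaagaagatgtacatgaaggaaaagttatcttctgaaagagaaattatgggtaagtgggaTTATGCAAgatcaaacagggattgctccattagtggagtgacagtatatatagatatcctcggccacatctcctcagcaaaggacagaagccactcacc
Orm2 promoter (chr4:63362199-63362448, plus strand): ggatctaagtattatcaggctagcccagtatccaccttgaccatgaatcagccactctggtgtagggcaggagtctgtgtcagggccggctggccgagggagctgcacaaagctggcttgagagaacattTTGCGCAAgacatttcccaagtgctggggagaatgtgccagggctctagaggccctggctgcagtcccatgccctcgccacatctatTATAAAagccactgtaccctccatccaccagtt
The TTNNGCAA core occurred in 6 of the 8 promoters (Saa1, Saa2, Saa3, Saa4, Lcn2 and Orm2), against 10.8% of all 32851 promoters of the same length. It began at -182 in Saa1, -183 in Saa2, -99 in Saa3 and -120 in Orm2, where the match is palindromic and counts on both strands. The NF-kB core, which is GGG, any 2 bases, TT, any base and CC, was found in Serpina3n alone (4.79% of all promoters), the STAT core TTCNNNGAA in Apcs alone (8.3%) and TATAAA in Orm2 alone (8.32%), STAT and NF-kB cores being searched on both strands and the TATA box on the gene's strand. The Saa1 and Saa2 promoters, with the 50 bases after the start included, were identical at 287 of 301 aligned positions (95.3%), whereas those of Saa1 and Saa3 were identical at 54.2%. A match describes letters, not binding.

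The first comparison asked how diet-induced steatohepatitis alters these genes relative to chow feeding. In 6 of the 8 chow livers Saa1, Saa2, Lcn2 and Orm2 lay below every one of the 8 DIO-MASH vehicle livers, while in chow mice 2 and 7 they lay within or above the DIO-MASH vehicle range. Group medians were 8.68 times higher in DIO-MASH vehicle for Saa1, 14.3 times for Saa2, 41.8 times for Lcn2 and 6.54 times for Orm2, whereas the fits on group means ran the other way. With all mice, the edgeR quasi-likelihood test put 0 members higher and 6 lower in DIO-MASH vehicle, while 55.4% of all tested genes passed in either direction (28.9% higher and 26.5% lower). Of the members, 7 had an unadjusted p under 0.05, as did 8471 of all 14105 genes. DESeq2 passed 4 members, for which the share of all genes is not given here. The edgeR test put 6 higher (Saa1, Saa2, Saa3, Lcn2, Orm2 and Hp) and 0 lower without the 3 mice, with 52.8% of all genes passing. The median log2 fold change of the 10 members was -0.96 with all mice, against 0.0072 over all tested genes, and 0.73 without the 3. In bulk liver, fewer cells of a type and less RNA per cell cannot be told apart.

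Saa1 ran from 15.9 to 5193 CPM with a median of 23.6 in chow vehicle and from 112.9 to 414.9 CPM with a median of 204.6 in DIO-MASH vehicle. Chow mice 2 (5193 CPM) and 7 (1613 CPM) exceeded all DIO-MASH vehicle mice, and the next chow mouse, mouse 8, had 55.9 CPM, below all of them. The fitted log2 fold change was -1.95 ± 0.74 (SE, n = 8 per group, edgeR adjusted p = 0.0216) with all mice and 3.12 ± 0.38 without the 3 mice. Saa2 behaved alike, at 6.07 to 5875 CPM (median 10.8) in chow and 66.8 to 257.4 CPM (median 154) in DIO-MASH vehicle. Its log2 fold change was -2.45 ± 0.85 (edgeR adjusted p = 0.0128) with all mice and 3.60 ± 0.41 without the 3. Without chow mouse 2 alone the values were -0.16 for Saa1 and 0.18 for Saa2, so both calls rested on that mouse.

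Saa3 was low in both groups, at 2.97 to 19.2 CPM (median 4.74) in chow and 4.56 to 16.2 CPM (median 7.52) in DIO-MASH vehicle, and the groups overlapped. Its log2 fold change was 0.34 ± 0.31 (edgeR adjusted p = 0.37) with all mice and 0.82 ± 0.30 without the 3 mice (edgeR adjusted p = 0.0188). Saa4 had 91.1 to 618.9 CPM (median 169.1) in chow and 92.3 to 183.4 CPM (median 115.1) in DIO-MASH vehicle. It fell by 0.82 ± 0.27 on the log2 scale (edgeR adjusted p = 0.00789), and the call ended without the 3 mice, at -0.26 ± 0.22 (edgeR adjusted p = 0.311).

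Among the lipocalin-fold proteins, Lcn2 showed the widest gap. It ran from 2.83 to 3090.0 CPM (median 3.68) in chow, with mouse 2 at 3090.0, mouse 7 at 151.1 and the other 6 at 8.98 or less, and from 79.7 to 184.2 CPM (median 153.8) in DIO-MASH vehicle. Mouse 7 thus fell within the DIO-MASH range and mouse 2 far above it. The log2 fold change was -1.49 ± 0.83 (edgeR adjusted p = 0.123) with all mice and 5.13 ± 0.54 without the 3, the largest of the 10. Orm2 ran from 3.91 to 2025 CPM (median 9.09) in chow and from 35.3 to 76.4 CPM (median 59.5) in DIO-MASH vehicle. Chow mice 2 (2025 CPM) and 7 (184.4 CPM) lay above all DIO-MASH mice and the rest below. Its log2 fold change was -2.30 ± 0.73 (edgeR adjusted p = 0.00631) and 2.60 ± 0.37 without the 3. Orm1, the abundant paralogue, had nearly equal medians, 516.4 CPM (414.9 to 4093) in chow and 528.3 CPM (437.9 to 713.2) in DIO-MASH vehicle. It fell by 1.05 ± 0.30 with all mice (edgeR adjusted p = 0.00263), and the difference was 0.03 ± 0.18 without the 3, so the call ended without them.

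Hp ran from 2633 to 29750.0 CPM (median 3705) in chow and from 3866 to 5958 CPM (median 5538) in DIO-MASH vehicle. Chow mice 2 and 7, at 29750.0 and 15590.0 CPM, lay above all DIO-MASH mice. The log2 fold change was -0.63 ± 0.31 (edgeR adjusted p = 0.0791) and 0.65 ± 0.15 without the 3. Apcs ran from 43.8 to 563.8 CPM (median 95.7) in chow and from 64.6 to 114.8 CPM (median 82.1) in DIO-MASH vehicle, with overlap. Apcs fell by 0.87 ± 0.31 on the log2 scale (edgeR adjusted p = 0.0156) with all mice, whereas it was 0.05 ± 0.22 higher without the 3 mice. Serpina3n had 319.3 to 1146 CPM (median 435.1) in chow and 348 to 565 CPM (median 491.7) in DIO-MASH vehicle, with a log2 fold change of -0.12 ± 0.20 (edgeR adjusted p = 0.628) and of 0.28 ± 0.13 without the 3.

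**Figure D2:**
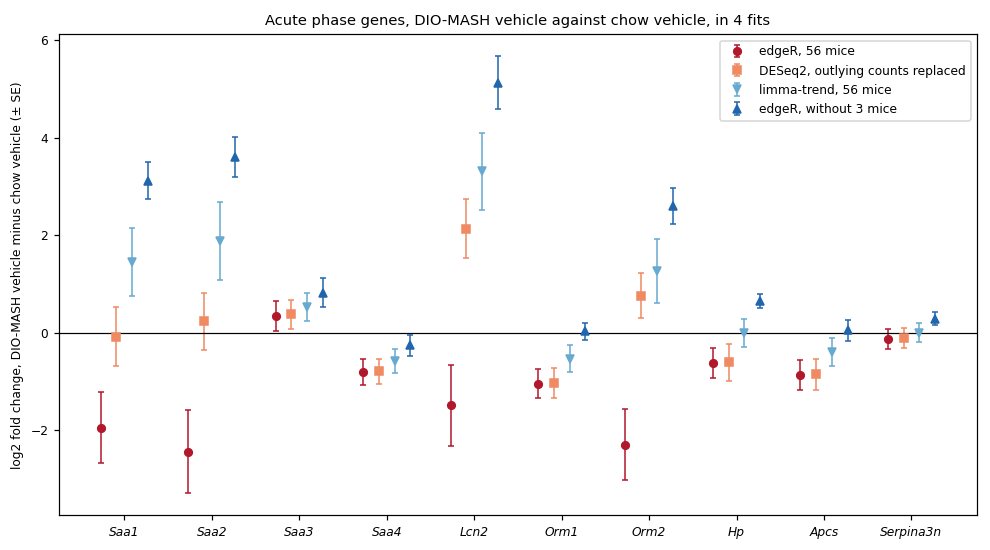
Log2 fold change of each acute phase gene between DIO-MASH vehicle and chow vehicle (points, with SE as bars). The fits are edgeR with all mice, DESeq2 with outlying counts replaced, limma-trend with all mice, and edgeR without the 3 mice that stand apart. Saa1, Saa2, Lcn2 and Orm2 change sign between the edgeR fits, from -1.95 to 3.12 for Saa1 and from -1.49 to 5.13 for Lcn2. Orm1, Hp, Apcs and Serpina3n also change sign between them, by less.

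These values depended on the handling of chow mice 2 and 7 and on the fit used. DESeq2 replaced the counts of Saa1, Saa2, Lcn2 and Orm2 in chow mouse 2 by lower ones. With mouse 7 kept, it gave log2 fold changes of -0.08 for Saa1, 0.23 for Saa2, 2.13 for Lcn2 and 0.76 for Orm2. Without that replacement it gave -1.93, -2.43, -1.47 and -2.28. An exact rank-sum test, which bounds the weight of 1 mouse, passed 0 members after adjustment over all genes (48.1% of all genes passed). Of the members, Lcn2 alone had an unadjusted exact p under 0.05, at 0.0379. No member separated the groups without overlap, as 9.49% of all genes did with the higher values in DIO-MASH vehicle and 6.48% with the lower. The animal numbers in the labels fall into 4 number series whose meaning the labels do not give. The mean log2 difference of Saa1 was -1.08 within series A (2 DIO-MASH vehicle and 2 chow mice), which holds chow mouse 2. It was 3.61 within series B (3 and 1), 3.84 within series C (2 and 3) and -0.15 within series D (1 and 2), which holds chow mouse 7. Series B and D thus had 1 mouse on 1 side. For Lcn2 the values were 0.21, 5.54, 5.50 and 2.31.

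In chow mouse 2, some other genes moved with the members. Of 16 other positive acute phase genes, 14 lay over 2 times above the chow median, among them the haem carrier Hpx at 31330 CPM (other 6 chow mice 4264 to 6443 CPM) and the endotoxin-binding Lbp at 593 CPM (75.8 to 126.1). Hamp, also of the 16, was lower, at 803.8 CPM (1166 to 1858). Of 8 negative acute phase genes, 1 lay over 2 times above the chow median and 0 over 2 times below. Of 9 tested neutrophil markers, 9 lay over 2 times above it, with the granule protein Mpo at 6.10 CPM and no read in the other 6. The cytokine Il1b stood at 6.77 CPM against 0.416 to 1.30, Il6 had 0 reads, and the NF-kB cofactor Nfkbiz stood at 46.96 CPM against 1.03 to 5.14. The neutrophil markers summed to between 0.768 and 54.1 CPM over the chow mice and between 1.77 and 4.40 over the DIO-MASH vehicle mice. In chow mouse 7, 6 of the 16 positive genes, 0 of the 8 negative genes and 4 of the 9 neutrophil markers lay over 2 times above the chow median. In combination mouse 6, 6 of the 16 other positive acute phase genes were over 2 times the group median, while Il1b was at 0.912 CPM, within the range of its group. Nfkbiz, at 5.47 CPM, was also within that range (2.38 to 17.65). The STAT3 feedback inhibitor Socs3 stood at 33.08 CPM, above the other mice of the group (3.21 to 20.03). The part of neutrophils in the members' levels was not tested.

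**Figure D3:**
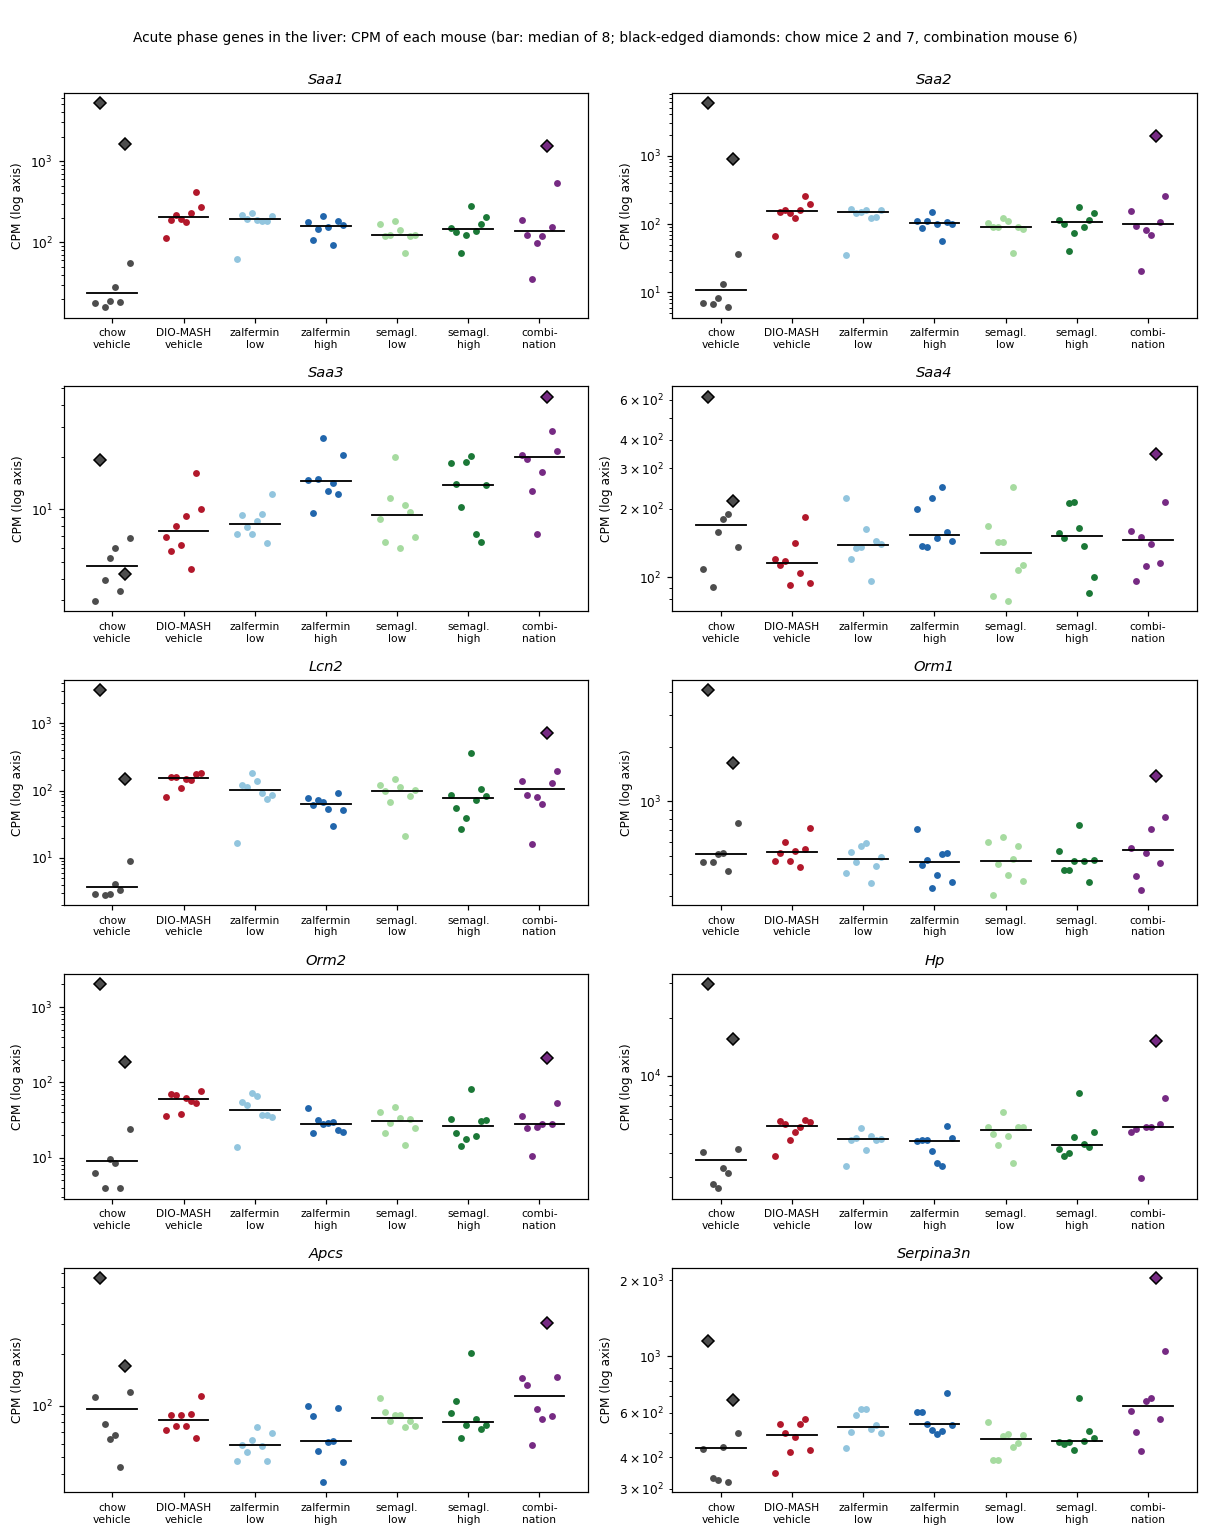
CPM of each acute phase gene in each mouse by treatment group, on a log axis, with the group median as a bar (8 mice per group). Saa3 is highest in the high-dose zalfermin and combination groups, with medians of 14.5 and 20.1 CPM against 7.52 in DIO-MASH vehicle, and single mice lie far above their groups in chow vehicle and the combination.

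The next comparisons asked how each treatment changed the members in DIO-MASH livers. All 5 share the same 8 vehicle mice, so their values are not independent of each other. Saa3 rose with high-dose zalfermin and with the combination, and Serpina3n rose with the combination. With all mice, the counts passing the edgeR test were 0 of 10 for low-dose zalfermin (0.468% of all genes), 1 for high-dose zalfermin, which was higher (17.2%, of which 8.54% higher), 0 for low-dose semaglutide (0%), 0 for high-dose semaglutide (2.43%) and 2 for the combination, both higher (20.9%, of which 10% higher). Of the members not passing, 0 had an unadjusted p under 0.05 with low-dose zalfermin and 0 with low-dose semaglutide, 1 did with high-dose semaglutide, and DESeq2 also passed 0 members in those 3 comparisons. Over all 14105 genes, 1593, 1222 and 2390 had an unadjusted p under 0.05 in these 3 comparisons, in that order. The median log2 fold change of the members was -0.28 with high-dose zalfermin and 0.54 with the combination, against -0.0228 and -0.0261 over all genes. The combination median was 0.022 without the 3 mice, and 3 members then passed for the combination, with Orm2 now lower at -0.97 ± 0.32 (edgeR adjusted p = 0.0247) against -0.16 ± 0.71 with all mice (20.6% of all genes passed). For high-dose zalfermin 3 passed as well in that fit, Saa3 higher and Lcn2 and Orm2 lower (18%).

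Saa3 ran from 4.56 to 16.2 CPM (median 7.52) in DIO-MASH vehicle, from 9.51 to 25.9 CPM (median 14.5) with high-dose zalfermin and from 7.19 to 44.6 CPM (median 20.1) with the combination. DIO-MASH vehicle mouse 7, at 16.2 CPM, lay within the range of both treated groups, and the 7 other vehicle mice were at or below 10.02 CPM. The log2 fold change was 0.89 ± 0.30 with high-dose zalfermin (edgeR adjusted p = 0.0339) and 1.33 ± 0.30 with the combination (edgeR adjusted p = 0.00104), and the latter was 1.10 ± 0.26 without the 3 mice. High-dose semaglutide had 6.54 to 20.2 CPM (median 13.9), with a log2 fold change of 0.70 ± 0.30 (edgeR adjusted p = 0.218). The low doses gave 0.02 ± 0.31 for zalfermin (edgeR adjusted p = 0.985) and 0.27 ± 0.30 for semaglutide (edgeR adjusted p = 0.834). The mean log2 difference within series A, B and C (series D held no treated mouse) ran from 0.872 to 1.10 for high-dose zalfermin and from 1.11 to 1.79 for the combination. The zalfermin call was lost when any 1 of 6 mice was left out, with log2 fold changes between 0.76 and 1.11 over all such fits.

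Marker genes of other cell types also differed between these groups. Of 8 markers of monocyte-derived macrophages, cells in which Saa3 is also known, 3 fell with high-dose zalfermin (8.68% of all genes were lower) and 2 with the combination (10.9%), and their summed level ran from 346.3 to 569.1 CPM in DIO-MASH vehicle, 187.2 to 414.4 with high-dose zalfermin and 123.1 to 527.1 with the combination. Of 6 hepatocyte markers, 5 rose in both (8.54% and 10% of all genes were higher), and their sum ran from 11320 to 19800 CPM in DIO-MASH vehicle, 18070 to 25490 with high-dose zalfermin and 17760 to 26980 with the combination. Of 4 adipocyte genes, Adipoq, Lep and Retn had 24, 3 and 14 reads over all 56 mice. The fourth, the serine protease Cfd, fell with high-dose zalfermin (-2.73 ± 0.56, edgeR adjusted p = 0.000354) and with the combination (-5.21 ± 0.70, edgeR adjusted p = 1.72e-07, and -5.14 without the 3 mice). The sum of the 4 ran from 9.89 to 28.96 CPM in DIO-MASH vehicle, 0.827 to 8.01 with high-dose zalfermin and 0 to 1.86 with the combination. The part of these cell types in the Saa3 difference was not tested.

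Serpina3n ran from 348 to 565 CPM (median 491.7) in DIO-MASH vehicle and from 424.6 to 2043 CPM (median 636.1) with the combination. Combination mice 6 (2043 CPM) and 8 (1053 CPM) stood highest, and the lower mice overlapped with vehicle. The log2 fold change was 0.77 ± 0.21 (edgeR adjusted p = 0.005), and 0.43 ± 0.12 without the 3 mice. With high-dose zalfermin it was 0.24 ± 0.20 (edgeR adjusted p = 0.458). Leaving out combination mouse 6 alone, with both chow mice kept, also gave 0.43 and ended the call.

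Lcn2 and Orm2 had lower medians than DIO-MASH vehicle in all 5 treated groups, by 1.44 to 2.42 times for Lcn2 and 1.37 to 2.27 times for Orm2. With high-dose zalfermin, Lcn2 ran from 30.1 to 92.2 CPM (median 63.7) against 79.7 to 184.2 CPM in vehicle. Orm2 ran from 21.2 to 45.7 CPM (median 28.3) against 35.3 to 76.4 CPM. Only the ends of the ranges overlapped. The edgeR fit gave -1.20 ± 0.83 for Lcn2 (adjusted p = 0.346) and -1.01 ± 0.72 for Orm2 (adjusted p = 0.36), with standard errors that take in the spread of the chow and combination groups. The exact rank-sum test, added after the data were seen, gave adjusted p-values of 0.00484 for Lcn2, 0.00789 for Orm2, 0.0403 for Saa3 and 0.0403 for Saa4, with 17.4% of all genes passing. The fit without the 3 mice gave -1.20 ± 0.38 for Lcn2 and -1.01 ± 0.31 for Orm2. Saa4 had a median of 153.4 CPM (135.9 to 249.6) with high-dose zalfermin against 115.1 CPM (92.3 to 183.4) in vehicle, and edgeR gave 0.53 ± 0.26 (adjusted p = 0.17).

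Saa1 and Saa2 did not pass in any treated group. Median Saa1 was 192.6 CPM for the low and 160.8 CPM for the high zalfermin dose, 122.5 and 144.2 CPM for semaglutide and 139.1 CPM for the combination, against 204.6 CPM in vehicle. Combination mouse 6 (1522 CPM) and mouse 8 (535 CPM) exceeded every vehicle mouse, and another combination mouse had 35.3 CPM, below all of them. For the combination the Saa1 log2 fold change was 0.62 ± 0.71 (edgeR adjusted p = 0.565) with all mice and -0.32 ± 0.32 without the 3 mice. For Saa2 it was 1.13 ± 0.82 (edgeR adjusted p = 0.336) and -0.48 ± 0.33, respectively. Hp medians in the treated groups lay between 4399 and 5453 CPM and Orm1 medians between 462.4 and 537.3 CPM, against 5538 and 528.3 CPM in vehicle. Apcs had its lowest treated median with low-dose zalfermin, 58.5 CPM (47.1 to 75.3), and its highest with the combination, 113.7 CPM (59.0 to 307.7). The log2 fold change of Apcs from vehicle was -0.51 ± 0.31 (edgeR adjusted p = 0.558) and 0.65 ± 0.31 (edgeR adjusted p = 0.127), respectively.

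**Figure D4:**
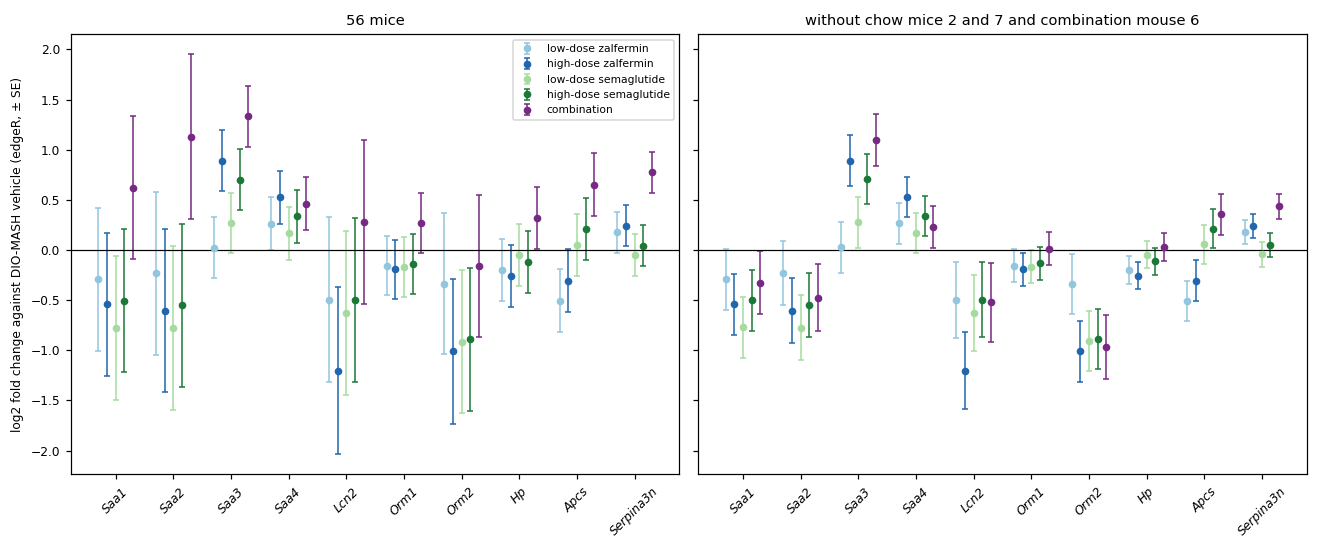
Log2 fold change of each acute phase gene from DIO-MASH vehicle in the 5 treated groups (points, with SE as bars). Saa3 reaches 0.89 with high-dose zalfermin and 1.33 with the combination, and Lcn2 and Orm2 lie at -1.20 and -1.01 with high-dose zalfermin.

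The combination was then compared with the monotherapies, which again share the combination mice. Against low-dose zalfermin, 2 members rose (6.62% of all genes passed, 3.27% higher), Saa3 by 1.31 ± 0.30 (edgeR adjusted p = 0.00436) and Apcs by 1.16 ± 0.31 (edgeR adjusted p = 0.016). The values were 1.07 ± 0.26 and 0.86 ± 0.21 without the 3 mice, and leaving out combination mouse 6 alone gave 0.86 for Apcs and ended its call. Against low-dose semaglutide, 2 rose (4.21% of all genes passed, 1.93% higher), Saa3 by 1.07 ± 0.30 (edgeR adjusted p = 0.0275) and Serpina3n by 0.82 ± 0.21 (edgeR adjusted p = 0.0117). Leaving out combination mouse 6 alone gave 0.83 and 0.48 and ended both calls, and the Saa3 call was lost without any 1 of 6 mice. Against high-dose semaglutide, Serpina3n rose by 0.73 ± 0.21 (edgeR adjusted p = 0.0466), where 1.89% of all genes passed and 0.858% were higher. This call was lost when any 1 of 14 mice was left out, and with combination mouse 6 left out the value was 0.39. Against high-dose zalfermin, 0 members passed in edgeR (0.503% of all genes), 3 had an unadjusted p under 0.05 (1544 of all 14105 genes) and DESeq2 passed 0. The 10 differences ran from -0.07 ± 0.26 for Saa4 to 1.74 ± 0.83 for Saa2 with all mice, and from -0.30 ± 0.21 for Saa4 to 0.68 ± 0.39 for Lcn2 without the 3 mice. Without the 3 mice, the difference of Serpina3n was 0.39 ± 0.12 from high-dose semaglutide (edgeR adjusted p = 0.114, the call ending) and 0.48 ± 0.12 from low-dose semaglutide, and that of Saa3 from low-dose semaglutide was 0.83 ± 0.26 (edgeR adjusted p = 0.056, the call ending).

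Saa3 ran from 6.40 to 12.3 CPM with low-dose zalfermin, 5.97 to 20.0 CPM with low-dose semaglutide and 7.19 to 44.6 CPM with the combination. The combination mice overlapped with both monotherapies. The interaction, which asks whether the combination exceeds the sum of both low-dose effects on the log2 scale, was 1.04 ± 0.43 for Saa3, 1.11 ± 0.44 for Apcs and 0.65 ± 0.29 for Serpina3n. These 3 had unadjusted p under 0.05, as did 952 of all 14105 genes, and the edgeR adjusted p-values of the 3 were 0.628, 0.611 and 0.665. The interaction values were 0.80 ± 0.36, 0.80 ± 0.29 and 0.30 ± 0.17 without the 3 mice. Of the 10 members 0 passed in edgeR and 0 in DESeq2 (0.0142% of all genes).

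High against low dose also gave 0 members, both for zalfermin (1.84% of all genes passed) and for semaglutide (0%). Saa3 was 0.87 ± 0.30 higher with high- than with low-dose zalfermin (edgeR adjusted p = 0.144), the 1 member with an unadjusted p under 0.05, and for semaglutide 0 members had one. Of all 14105 genes, 1906 had one for zalfermin and 549 for semaglutide. High-dose zalfermin against high-dose semaglutide gave 0 members in edgeR (0.447%), 0 with an unadjusted p under 0.05 (1361 of all genes) and 0 in DESeq2, which also passed 0 in both dose comparisons. The differences between the high doses ran from -0.71 ± 0.83 for Lcn2 to 0.20 ± 0.20 for Serpina3n, with Saa3 at 0.19 ± 0.30. Those between the zalfermin doses ran from -0.71 ± 0.83 for Lcn2 up to the Saa3 value, and those between the semaglutide doses from -0.07 ± 0.31 for Hp to 0.43 ± 0.30 for Saa3.

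Against chow vehicle, Saa3 was higher with the combination (1.67 ± 0.31, edgeR adjusted p = 4.18e-05), high-dose zalfermin (1.23 ± 0.31, edgeR adjusted p = 0.00163) and high-dose semaglutide (1.04 ± 0.31, edgeR adjusted p = 0.00623). Its difference was 0.36 ± 0.32 for low-dose zalfermin (edgeR adjusted p = 0.354) and 0.61 ± 0.31 for low-dose semaglutide (edgeR adjusted p = 0.107). Without chow mouse 2 alone both passed, at 0.87 and 1.11. Leaving out the 3 mice, the Saa3 values were 1.92 ± 0.31 for the combination, 1.71 ± 0.30 and 0.85 ± 0.30 for high- and low-dose zalfermin, and 1.53 ± 0.30 and 1.09 ± 0.30 for high- and low-dose semaglutide. Over the 10 members, 7 passed with low-dose zalfermin (47.5% of all genes), 8 with high-dose zalfermin (37.2%), 7 with low-dose semaglutide (45.6%), 6 with high-dose semaglutide (39.9%) and 4 with the combination (32.4%). Of these, 7, 7, 7, 5 and 2 were lower than in chow, beside 22.5%, 17.6%, 21.3%, 18.6% and 15% of all genes. Without chow mouse 2 the totals for the first 4 groups were 3, 1, 2 and 2. The direction turned without the 3 mice, with 7, 7, 6, 7 and 7 members higher than in chow and 0 lower in each group, where 44.5%, 34.2%, 42.1%, 36.3% and 27.5% of all genes passed. In that fit Saa1 ran from 2.34 to 2.82 over the 5 groups, Saa2 from 2.83 to 3.37, Lcn2 from 3.92 to 4.63 and Orm2 from 1.59 to 2.26.

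Within groups the members varied together from mouse to mouse. After the group means were subtracted, Pearson's r of log2 CPM over the 56 mice ran from 0.405 to 0.99 for the 45 pairs, with a median of 0.82, and all 45 had a Benjamini-Hochberg adjusted permutation p under 0.05. Spearman's rho ran from 0.102 to 0.963 (median 0.597), with 35 pairs passing. Without the 2 mice farthest from the median, r ran from 0.00483 to 0.982 (median 0.71). Without the 3 mice that stand apart, r ran from -0.285 to 0.959 (median 0.543), and 34 of the 45 pairs passed. The share of pairs of other genes that passed was not computed. Whether the members vary together more than other genes do was not tested.

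Saa1 and Saa2 were the closest pair, at r = 0.99 and rho = 0.963 (permutation p = 1e-05 for both, the smallest that 100000 permutations can give, adjusted 1.61e-05 and 2.37e-05), and at r = 0.959 without the 3 mice. They share part of their 75-base windows, and the part of this in r was not tested. Saa1 and Lcn2, on separate chromosomes and with no window shared, had r = 0.953 and rho = 0.883, and r = 0.921 without the 2 farthest mice and 0.862 without the 3. Saa1 and Hp had r = 0.953 and rho = 0.811, and r = 0.777 without the 3. Saa4, the constitutive form, differed. Its r with Saa1 was 0.519 (permutation p = 0.00478, adjusted 0.00566) and rho 0.229 (permutation p = 0.109, adjusted 0.125), and r was -0.04 without the 3, so that relation rested on those mice. With Hp, Saa4 had r = 0.487 with all mice and -0.15 without the 3. Saa3 was only loosely tied to the rest, with r = 0.54 and rho = 0.421 to Saa1 and r = 0.45 without the 3.

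**Figure D5:**
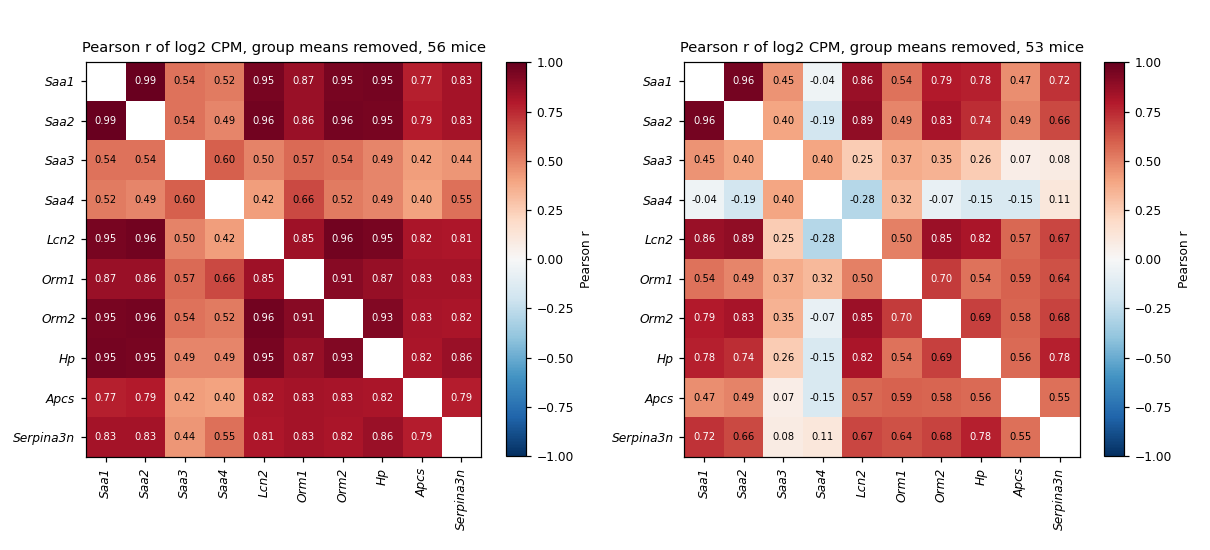
Pearson correlation of log2 CPM between each pair of acute phase genes after subtraction of the group means, with all 56 mice and with the 53 mice left without the 3 that stand apart. Saa1 with Saa2 goes from 0.99 to 0.959, and Saa4 with Saa1 from 0.519 to -0.04.

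Over the 56 mice and 11875 genes with a mean of 1 CPM or more, the gene outside the 10 members that was most like each member by Pearson's r of log2 CPM was described, group differences included. It was the membrane protein gene Tmem176a for Saa1 (0.854), Saa2 (0.863) and Lcn2 (0.882). It was the haem carrier Hpx for Orm1 (0.902) and Hp (0.939), and the third orosomucoid gene Orm3 for Orm2 (0.889). Apcs followed Lbp (0.837), Serpina3n followed the hepatokine Fgl1 (0.867), Saa4 followed the complement inhibitor Serping1 (0.76) and Saa3 followed the gamma-glutamyltransferase gene Ggt6 (0.655). Without the 3 mice the values for Saa1 with Tmem176a and Hp with Hpx were 0.819 and 0.826, and Orm1 with Hpx dropped to 0.646. These points share group, library and the 3 mice.

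Other genes of the acute phase response were read from lists. Of 16 other positive acute phase genes, 2 were higher and 10 lower in DIO-MASH vehicle than in chow, where 28.9% and 26.5% of all genes were (4 and 7 of the 16 without the 3 mice), among them the fibrinogen gene Fga at -1.20 ± 0.17 (edgeR adjusted p = 7.79e-08, and -0.93 without the 3). With high-dose zalfermin 8 of them rose and with the combination 9, beside 8.54% and 10% of all genes (10 rose and 1 fell, and 9 rose, without the 3 mice). The median log2 fold change was 0.47 and 0.86, and the inter-alpha-trypsin inhibitor Itih4 rose by 0.65 ± 0.18 (edgeR adjusted p = 0.00836) and 1.12 ± 0.18 (edgeR adjusted p = 1.03e-05, and 0.92 without the 3 mice). The median was 0.12 for the low zalfermin dose, and 0.21 and 0.31 for the low and high semaglutide doses. Of 8 negative acute phase genes, whose products fall in inflammation, 8 were lower in DIO-MASH vehicle (26.5% of all genes, and 7 of the 8 without the 3 mice), albumin at -1.37 ± 0.14 (edgeR adjusted p = 9.96e-12, and -1.34 without the 3). With high-dose zalfermin 7 rose and with the combination 7, also without the 3 mice (8.54% and 10% of all genes). The corticosteroid-binding globulin gene Serpina6 rose by 1.43 ± 0.15 (edgeR adjusted p = 2.64e-09) and 1.16 ± 0.15 (edgeR adjusted p = 1.47e-07, and 1.25 without the 3). Genes of both lists therefore rose with these treatments, beside 5 of 6 hepatocyte markers, whose part was not tested.

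Upstream, the inducing cytokines were scarce. Il6 had 13 reads over all 56 mice, with at most 3 in a mouse, and was not tested, nor were Osm, Il11 and Il22. Lif, with 134 reads and at most 10 in a mouse, and Tnf, with 213 and at most 15, were also low. In chow, Lif had a read in mouse 2 alone, so the size of its differences from chow is uncertain. Of the 4 cytokines tested, Lif (4.07 ± 0.82, edgeR adjusted p = 3.73e-05, and 5.24 without the 3) and Il1a (1.05 ± 0.22, edgeR adjusted p = 6.51e-05, and 1.22 without the 3) were higher in DIO-MASH vehicle (28.9% of all genes), and without the 3 mice all 4 were. Il1b differed by 0.04 ± 0.42 (edgeR adjusted p = 0.943) with all mice and by 1.30 without the 3, and Tnf by 1.32 ± 0.67 (edgeR adjusted p = 0.0888) with all mice and by 2.70 (edgeR adjusted p = 0.00521) without the 3. Stat3 differed by -0.37 ± 0.13 in DIO-MASH vehicle (edgeR adjusted p = 0.013; -0.13 without the 3) and rose with high-dose zalfermin by 0.38 ± 0.13 (edgeR adjusted p = 0.0323) and with the combination by 0.43 ± 0.13 (edgeR adjusted p = 0.0127, and 0.42 without the 3). Its feedback inhibitor Socs3 differed by 0.01 ± 0.37 between the vehicle groups (edgeR adjusted p = 0.976, and -0.0070 without the 3), and the C/EBP factor Cebpd by 0.54 ± 0.27 (edgeR adjusted p = 0.0835) with all mice and by 0.72 (edgeR adjusted p = 0.0349) without the 3. The cytokine receptor Osmr was higher in DIO-MASH vehicle (1.78 ± 0.22, edgeR adjusted p = 1.33e-09) and Lifr lower (-1.58 ± 0.20, edgeR adjusted p = 5.73e-09), at 1.80 and -1.65 without the 3. The haptoglobin receptor Cd163 was at -5.07 ± 1.05 (edgeR adjusted p = 5.92e-05), and Tlr4, a receptor reported for serum amyloid A, at 1.68 ± 0.24 (edgeR adjusted p = 6.59e-08), against -4.62 and 1.85 without the 3.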

How the data were processed

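RNA of 56 livers was sequenced from stranded poly(A) libraries (75 cycles). The deposited values are raw read counts per gene that the authors made by aligning to GRCm38; the submitters' processing notes also name Trim Galore 0.6.4 and Salmon 1.9.0, with no role given, and the counting program and its use of strand are not given in the sources used here. Groups came from the labels, every column of counts was used, and each mouse is a separate animal.

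The 14105 genes reaching at least 5 reads in at least 3 mice were tested with edgeR 4.0.16 (TMM, quasi-likelihood test, two-sided, all 7 groups in 1 fit, no covariates) in R 4.3.3, and p-values were adjusted by Benjamini-Hochberg over all tested genes with a threshold of 0.05. The study's own analysis used DESeq2. CPM used TMM-scaled library sizes. Total counts of 5228187 to 20885786 set the precision. Correlations used 100000 permutations within groups. Promoter sequences are RefSeq's and gene positions are GENCODE M21's. The script was tested on simulated counts. No pair of mice of a group agreed within sampling noise.

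The 10 members and the other gene lists were chosen with earlier results of these data known. The rule for named genes took all members in every comparison, of which the text gives the rest by count or range where few passed; from the other lists, up to 3 genes per list and comparison with the smallest adjusted p, plus Il6, Il1b, Tnf, Stat3, Socs3 and Cebpd, with genes from the mice that stand apart named after their values were seen; and per member the 3 most correlated genes. Alternatives were DESeq2 1.42.0, its size factors, other filters, the number series as covariate, fits of only the groups compared, and each mouse left out. A fit without the 3 mice that stand apart, limma-trend (limma 3.58.1), DESeq2 without outlier replacement and an exact rank-sum test were added after seeing the data. The study excluded 1 low-dose semaglutide mouse that the labels do not mark, so all 8 were kept.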

Additional observations from a re-analysis of the deposited data

Results flagged for a closer look

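In each group of 8 mice and for each of the 10 members, the gap between the highest or lowest mouse and its nearest neighbour was set against the range of the group. In 31 of the 70 groups a mouse lay apart by this measure (Dixon's ratio of CPM above 0.526). That bound gives about 1 in 20, or 3.5, for independent, normally distributed values. CPM are skewed to high values and the members vary together, so 3.5 is not the chance level for these groups. Chow vehicle mouse 2 gave 9 of them. It had 5193 CPM of Saa1 (next mouse 1613 CPM), 5875 CPM of Saa2, 19.2 CPM of Saa3, 618.9 CPM of Saa4, 3090.0 CPM of Lcn2, 4093 CPM of Orm1, 2025 CPM of Orm2, 563.8 CPM of Apcs and 1146 CPM of Serpina3n. For Hp, mouse 7 at 15590.0 CPM lay close enough to mouse 2 at 29750.0 CPM that neither lay apart.

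Combination mouse 6 gave another 9, with 1522 CPM of Saa1, 1965 CPM of Saa2, 347.4 CPM of Saa4, 707.5 CPM of Lcn2, 1388 CPM of Orm1, 209.6 CPM of Orm2, 15190.0 CPM of Hp, 307.7 CPM of Apcs and 2043 CPM of Serpina3n. The other 13 came from other mice. High-dose semaglutide mouse 5 was highest for Lcn2 (358.7 CPM), Orm1 (745.3 CPM), Orm2 (81.7 CPM), Hp (8146 CPM), Apcs (203.8 CPM) and Serpina3n (687.3 CPM). Low-dose zalfermin mouse 1 was lowest for Saa1 (61.6 CPM) and Saa2 (34.96 CPM), and low-dose semaglutide mouse 6 was lowest for Saa2 (37.2 CPM). Saa3 was highest in DIO-MASH vehicle mouse 7 (16.2 CPM) and low-dose semaglutide mouse 4 (20.0 CPM). Orm2 was highest in high-dose zalfermin mouse 1 (45.7 CPM), and Apcs in low-dose semaglutide mouse 1 (111.4 CPM).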

How the results depend on the processing

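The direction of the DIO-MASH to chow differences depended on how chow mouse 2 was handled; elsewhere, most values kept direction and side of the threshold under DESeq2's size factors, both other filters and the number series as covariate. Log2 fold changes, DIO-MASH vehicle minus chow vehicle, that turned were, under DESeq2, 0.23 for Saa2, 2.13 for Lcn2 and 0.76 for Orm2. Without the 3 mice they were 3.12 for Saa1, 3.60 for Saa2, 5.13 for Lcn2, 0.026 for Orm1, 2.60 for Orm2, 0.65 for Hp, 0.045 for Apcs and 0.28 for Serpina3n. With limma-trend they were 1.44 for Saa1, 1.88 for Saa2, 3.31 for Lcn2 and 1.26 for Orm2, and as differences of medians (rank-sum) 3.14 for Saa1, 3.86 for Saa2, 5.33 for Lcn2, 0.033 for Orm1, 2.69 for Orm2, 0.59 for Hp and 0.18 for Serpina3n. With each mouse left out they ran from -2.64 to 0.18 for Saa2, -1.68 to 2.53 for Lcn2, -2.49 to 0.74 for Orm2, -0.76 to 0.051 for Hp and -0.20 to 0.15 for Serpina3n, the positive ends being without chow mouse 2.

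For the combination minus DIO-MASH vehicle, Saa1 turned to -0.32 without the 3 mice, -0.21 with limma-trend and -0.56 by medians, Saa2 to -0.48 with DESeq2, -0.48 without the 3, -0.16 with limma-trend and -0.61 by medians, Lcn2 to -0.0095 with the number series, -0.52 without the 3, -0.40 with limma-trend and -0.55 by medians, and Hp to -0.022 by medians. With each mouse left out Saa1 ran from -0.33 to 0.82, Saa2 from -0.48 to 1.31 and Lcn2 from -0.53 to 0.46, the negative ends being without combination mouse 6. For high-dose semaglutide, Apcs and Serpina3n turned to -0.022 and -0.087 by medians, and with each mouse left out ran from -0.029 to 0.29 and from -0.038 to 0.084, the low ends being without its mouse 5. Saa3 for low-dose zalfermin ran from -0.069 to 0.23, and for low-dose semaglutide Saa4 ran from -0.015 to 0.28, Hp from -0.11 to 0.010 and Apcs from -0.0098 to 0.13. 

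Counts of members past the threshold changed as follows. Where no share of all genes is given, here and with each mouse left out, the counts show only how the member calls moved. In fits of only the groups compared, they were 1 for DIO-MASH vehicle minus chow, 1 for low-dose zalfermin, 5 for high-dose zalfermin, 0 for the combination minus low-dose semaglutide, 0 for it minus high-dose semaglutide and 1 for high- minus low-dose zalfermin. Against chow they were 2, 4, 2, 3 and 1 for low- and high-dose zalfermin, low- and high-dose semaglutide and the combination, 3, 3, 4 and 3 for the first 4 of these with DESeq2, 3, 4, 3 and 3 with limma-trend, and 1, 1, 0, 1 and 1 by rank-sum. The rank-sum test passed 0 for DIO-MASH vehicle minus chow (48.1% of all genes), 4 for high-dose zalfermin (17.4%) and 1 for the combination. It passed 1 for the combination minus low-dose zalfermin and 0 for the combination minus either semaglutide dose. Limma-trend passed 3 for DIO-MASH vehicle minus chow. Without the 3 mice that count stayed at 6 (52.8% of all genes passed), all higher in place of all lower. Without the 3 mice, 3 passed for high-dose zalfermin (18% of all genes) and 3 for the combination (20.6%, Orm2 now lower). In the same fit 1 passed for the combination minus low-dose semaglutide (3.6%) and 7 for the combination minus chow (27.5%). For the combination minus high-dose semaglutide the count was 0 without a filter, with the number series, without the 3 mice and with limma-trend.

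With each mouse left out in turn, counts ran from 2 (without chow mouse 2) to 7 for DIO-MASH vehicle minus chow, 0 to 1 for high-dose zalfermin, 1 to 3 for the combination, 1 to 3 for it minus low-dose zalfermin, 0 to 2 minus low-dose semaglutide, 0 to 1 minus either high dose, and against chow 3 to 8, 1 to 8, 2 to 8, 2 to 8 and 3 to 5 in the order above. Leaving out low-dose semaglutide mouse 6 changed no count. The cause of these shifts was not tested beyond the mice named. No paired analysis was possible because the replicate numbers were given in accession order and pair no mice. Il6 had at most 3 reads in a mouse, and Il6, Osm, Il11 and Il22 were too low to test.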

Other observations

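Markers of other liver cells were read beside the acute phase genes, as values with no explanation. All 8 markers of monocyte-derived macrophages were higher in DIO-MASH vehicle than in chow vehicle, where 28.9% of all genes were. Among them were Trem2 by 4.80 ± 0.44 (edgeR adjusted p = 9.09e-13) and Gpnmb by 6.09 ± 0.57 (edgeR adjusted p = 1.57e-12) on the log2 scale. Of 7 stellate cell and fibroblast markers, 6 were higher in DIO-MASH vehicle (28.9% of all genes) and 6 fell with the combination (10.9% of all genes). Col1a1 fell with a log2 fold change of -2.15 ± 0.38 (edgeR adjusted p = 3.96e-05). Of 5 Kupffer cell markers, Timd4 was lower in DIO-MASH vehicle (-2.20 ± 0.54, edgeR adjusted p = 0.00051) and Cd5l higher (1.11 ± 0.30, edgeR adjusted p = 0.00171), and their summed level had a median of 129.9 CPM in chow and 262.5 CPM in DIO-MASH vehicle. Clec4f rose by 0.93 ± 0.32 with high-dose zalfermin (edgeR adjusted p = 0.0345). The serine protease Cfd, listed as an adipocyte marker, was 4.87 ± 0.69 higher in DIO-MASH vehicle (edgeR adjusted p = 4.50e-08). It fell with the combination by 5.21 ± 0.70 (edgeR adjusted p = 1.72e-07). Adipoq, Lep and Retn, the rest of that list, had 24, 3 and 14 reads over all 56 mice and were too low to test. The cells in which Cfd was expressed were not tested. With chow mice 2 and 7 and combination mouse 6 left out, the values against chow were 5.25 for Trem2, 5.87 for Gpnmb, -1.79 for Timd4, 1.67 for Cd5l and 4.67 for Cfd, and those for the combination were -2.07 for Col1a1 and -5.14 for Cfd.

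Lcn2 is also a neutrophil granule protein. In high-dose semaglutide mouse 5, Lcn2 stood at 358.7 CPM. There 8 of 9 tested neutrophil markers lay over 2 times above the group median (2.5% of all genes), as 9 of 9 did in chow mouse 2 (4.74%). In low-dose zalfermin mouse 8 and low-dose semaglutide mouse 8, 7 of the 9 did so (1.22% and 3.14% of all genes). In both of these mice 0 of the 10 members, Lcn2 included, lay over 2 times above the group median. In combination mouse 6, with Lcn2 at 707.5 CPM, 2 of the 9 did (2.25% of all genes). These counts used log2 CPM with a small count added. By plain CPM ratios 3 did in combination mouse 6 (Mpo, Retnlg and Mmp8, with 3, 5 and 5 reads). Ngp, Camp and Ltf had 0 reads there, the group medians of Ngp and Camp being 0 as well. The part of neutrophils in Lcn2 was not tested.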
